A study of Homo sapiens with 12 samples.

Results

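The genes for the proteins of the mitochondrial ribosome were followed in SH-SY5Y cells that were differentiated with all-trans retinoic acid (ATRA) and exposed to hydrogen peroxide (H2O2). Members were chosen by symbol alone, as MRPL or MRPS followed by a number and no more than 1 letter, with pseudogenes left out. This gave 76 of the 55765 gene symbols in the count data, 47 of them MRPL (named for the large subunit) and 29 MRPS (named for the small subunit), spread over 21 chromosomes. SH-SY5Y was derived from a human neuroblastoma, and the labels name its parent line SK-N-SH as the source.

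Mitochondria hold their own ribosomes, which translate the messages of mitochondrial DNA into core subunits of the respiratory chain and of ATP synthase. The ribosomal RNAs of these particles are transcribed from mitochondrial DNA, whereas all of their proteins are encoded in the nucleus, made in the cytosol and imported. The particle descends from a bacterial ribosome, so that some of its proteins have bacterial counterparts and others are found only in mitochondria. Respiration is a main source of reactive oxygen species inside the cell, and differentiated neurons depend on it for ATP.

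The 12 libraries came from 2 experiments, each with 3 control and 3 treated samples. In the co-treatment experiment, control cells received ATRA alone for 7 days, and treated cells received ATRA together with H2O2 for those 7 days. In the pre-treatment experiment, H2O2 was given 72 h before the 7 days of ATRA began, and control cells were differentiated without it. The labels and the methods give the H2O2 concentration in different units, so no dose is stated here. No library comes from undifferentiated cells, and the design holds 1 cell line, so p-values measure the spread between these samples, which may be technical where the replicates were not separate cultures.

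The libraries held 27576276 to 98287391 reads on genes. One library stood apart from its group: control replicate 3 of the pre-treatment experiment differed from control replicates 1 and 2 by chi-squares per degree of freedom of 613 and 566 over all genes, whereas the other pairs of replicates within a group gave 27.6 to 167. Reads that the counting program matched to no annotated feature are called no-feature reads here. Where they lie, within genes or outside them, was not examined. For every read on a gene, control replicates 1 and 2 held 0.800 and 0.830 no-feature reads. Control replicate 3 held 0.200, and the 3 pre-treated libraries held 0.343 to 0.462. The share of small RNA genes was 1.63% and 2.92% for control replicates 1 and 2. It was 17.6% for control replicate 3, and 13.3% to 15.1% after pre-treatment. In the co-treatment libraries, no-feature reads ran from 0.263 to 0.429 and the small RNA share from 5.08% to 13.1%. Control replicates 1 and 2 lay beyond both ranges, and so did control replicate 3, on the opposite side. Leaving out control replicate 3 is thus a choice that these values do not settle. Pre-treatment calls are given over 5 libraries, without control replicate 3, and the text says for each set of genes whether they held over all 6. The neuronal markers TUBB3, ENO2, MAP2, MAPT and SV2A were detected in the series, with a summed level of 1091 to 1583 CPM per library (CPM, reads of a gene relative to the total of its library, after TMM scaling).

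Transcripts of the 76 genes together made up 0.245% and 0.219% of gene reads in pre-treatment control replicates 1 and 2, and 0.309% in control replicate 3. The pre-treated libraries held 0.306%, 0.299% and 0.321%. In the co-treatment experiment the controls held 0.262%, 0.300% and 0.306%, and the treated libraries held 0.317%, 0.317% and 0.306%. The largest half-width of the 95% Wilson intervals of these shares was 0.00210 percentage points, which covers counting error only. Pre-treatment control replicates 1 and 2 were thus the lowest of the 12 libraries, and the other 10 lay between 0.262% and 0.321%. Gene by gene, both of these libraries lay below each of the other 10 for 55 of the 75 members tested over the whole series, against 14.7% of all genes.

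**Figure D1:**
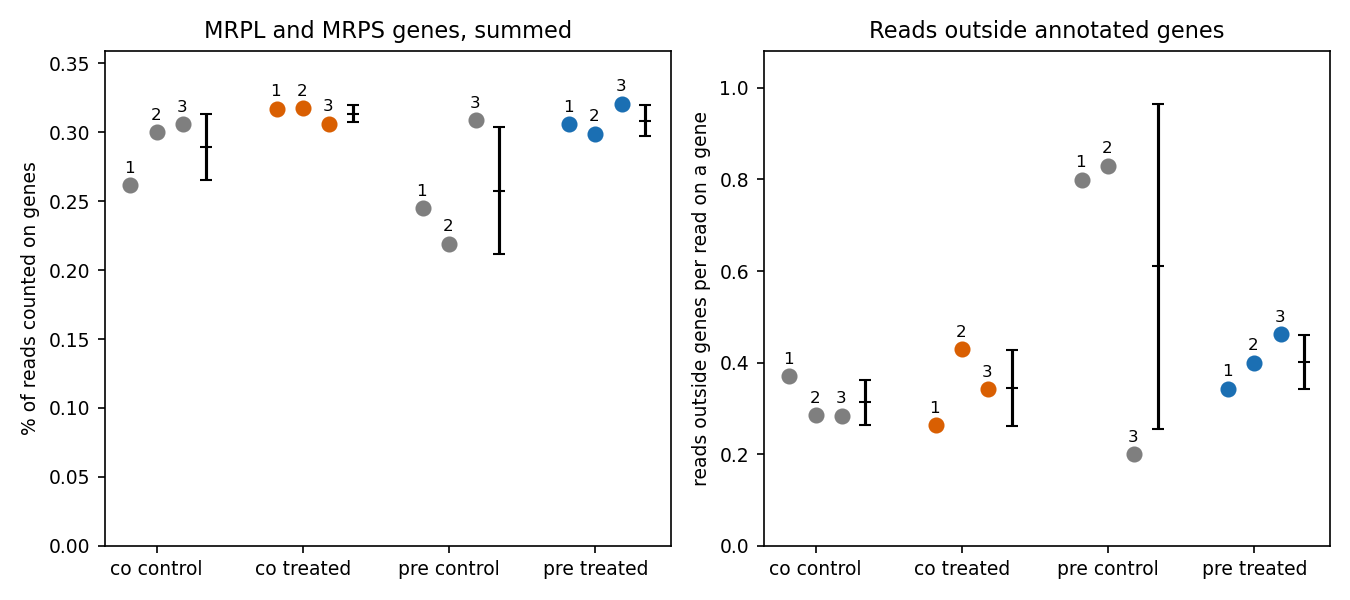
The left panel plots the summed share of MRPL and MRPS genes in the reads counted on genes (%), for each of the 12 libraries (numbered points). The right panel plots no-feature reads per read on a gene. It labels them as outside genes, but where they lie was not examined. Bars give the mean and SD of the 3 libraries of each group. Pre control 1 and 2 have the lowest shares on the left (0.245% and 0.219%) and the highest values on the right (0.800 and 0.830), and pre control 3 has the lowest value on the right (0.200).

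After pre-treatment, 56 of the 75 members tested were higher in treated cells than in control replicates 1 and 2 at a false discovery rate (FDR) below 0.05, and 0 were lower. Over all genes tested, 13.2% were called higher and 12.8% lower, and of protein-coding genes 19.5% were called higher. The median log2 fold change (log2FC, treated against control) of the 75 members was 0.66, against 0.01 for all genes and 0.15 for protein-coding genes. The log2FC of the called members ran from 0.47 to 1.10, and 70 of the 75 members were above 0, as were 50.6% of all genes and 60.1% of protein-coding genes. An unadjusted p below 0.05 was found for 62 members, against 40.5% of all genes. Every treated library lay above both controls for 65 of the 75 members, as it did for 25.7% of all genes. The count moved with single libraries: it was 12 without control replicate 2 and 32 without treated replicate 1. Scaling by library size alone moved the median of all genes to -0.21 and the share of higher among called genes from 50.8% to 22.1%, and 33 members were then higher and 1 lower, with a member median of 0.44.

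When control replicate 3 was included, 0 members were called higher or lower over the 6 libraries, at a background of 0.0242% of genes called higher and 0% called lower. In simulated data this fit recovered 0.5% of genes changed by a log2FC of 1 in size. The simulation gave each gene the same spread in all libraries and held no shifted control library. It does not measure the power of this fit in the real data, and the lack of calls is not read as a lack of change. None of the 75 members had an unadjusted p below 0.05 in this fit, which 11.2% of all genes did. The smallest FDR among them was 0.446, and the median log2FC fell to 0.27, with 67 of 75 members above 0, against 49.4% of all genes. DESeq2, limma-voom and edgeR's exact test also called 0. All 56 members called without control replicate 3 kept a positive log2FC with it, at a median of 0.32 in place of 0.69. Control replicate 3 lay above control replicates 1 and 2 for 69 of the 75 members, against 39.5% of all genes. It lay above every treated library for 57 of them, against 31.8% of all genes, and within the range of the treated libraries for 13, against 33.4%. All 3 treated libraries lay above all 3 controls for 4 members only (MRPL32, MRPS18C, MRPS25 and MRPS31), against 7.97% of genes. The higher level in treated cells thus held against control replicates 1 and 2, and not against control replicate 3. The no-feature reads and the small RNA share moved with the same division of the controls, and their part in the result was not tested.

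**Figure D2:**
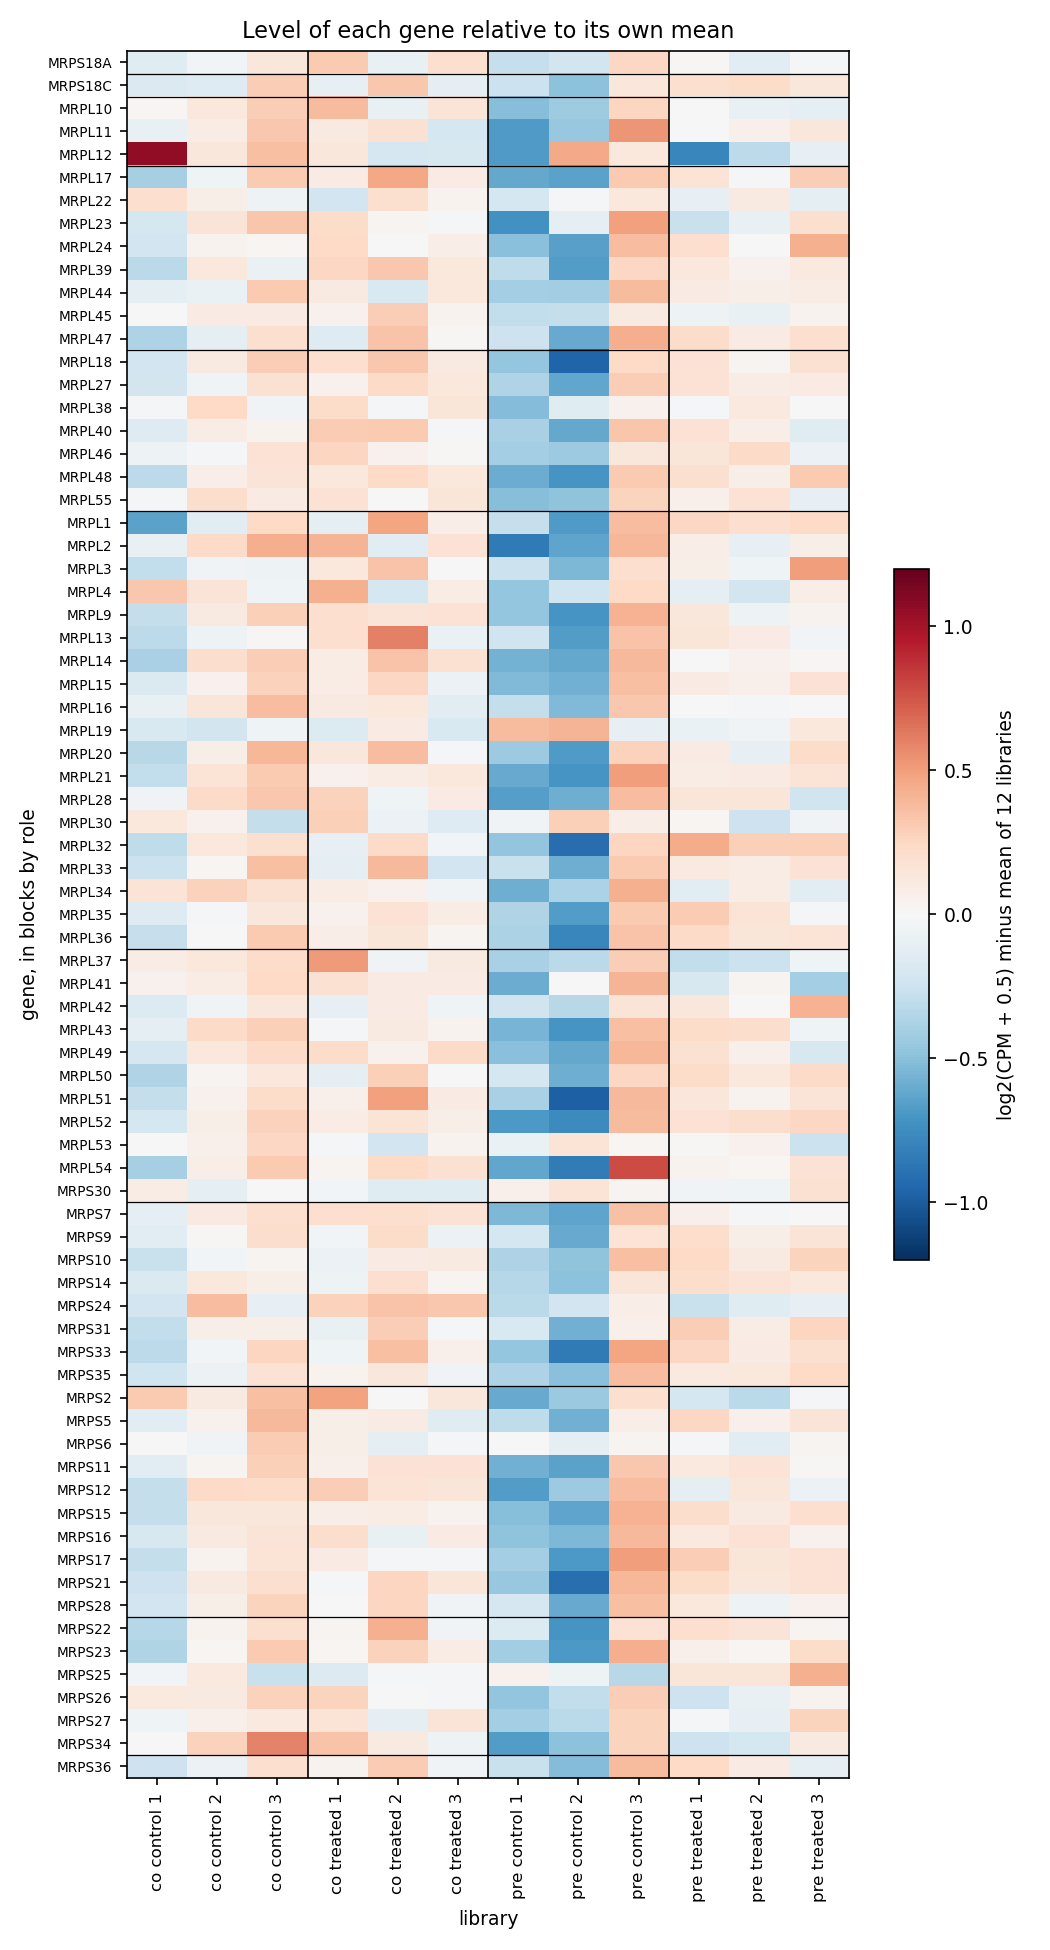
Each row is 1 of the 75 detected genes, in blocks by role in the ribosome, and each column 1 of the 12 libraries. Colour gives log2(CPM + 0.5) minus the gene's mean over the 12 libraries, from blue (lower) to red (higher). Pre control 1 and 2 are blue in most rows, and 55 of 75 tested genes have these as their lowest libraries. MRPS18B, listed at 0 throughout, is left out.

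MRPL32 and MRPL52 had the largest log2FC after pre-treatment. MRPL32 (chromosome 7, 42971975 to 42988557 on hg19, plus strand) is the counterpart of bacterial L32 and is matured inside mitochondria by a protease of the inner membrane. It stood at 37.3 and 27.3 CPM in control replicates 1 and 2, 62.4 CPM in control replicate 3, and 71.0, 63.4 and 63.5 CPM in the treated libraries. Each treated library lay above each control, with control replicate 3 just below the lowest of them. The log2FC of MRPL32 was 1.10 ± 0.16 (SE, 5 libraries; FDR = 0.0032), and 0.66 ± 0.30 over 6 libraries (FDR = 0.456). MRPL52 (chromosome 14, 23299088 to 23304246, plus strand), a large subunit protein without a bacterial counterpart, stood at 24.3 and 23.0 CPM in control replicates 1 and 2, and at 44.7, 45.9 and 46.9 CPM in the treated libraries. Control replicate 3, at 51.5 CPM, lay above all 3 treated libraries. Its log2FC was 1.03 ± 0.12 over 5 libraries (FDR = 0.0016) and 0.49 ± 0.32 over 6 (FDR = 0.590). These were the only members called with a log2FC above 1, where 2.98% of all genes were called higher past that size and 8.23% lower.

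The start regions of these genes are shown next because some members start near a gene that runs the other way. Whether such genes share a promoter was not tested. Of the 76 members, 26 have a protein-coding neighbour that starts within 1 kb on the opposite strand (head to head) in the hg19 annotation. For 67 members, RefSeq gives a start window on GRCh38.p14, and the 250 bases before the start, exons included, were searched on both strands. Printed below is the stretch nearest the start that no annotated exon covers, 5′ to 3′ on the gene's strand, with a matched motif in capitals.
MRPL32, chr7:42932215-42932375, plus strand: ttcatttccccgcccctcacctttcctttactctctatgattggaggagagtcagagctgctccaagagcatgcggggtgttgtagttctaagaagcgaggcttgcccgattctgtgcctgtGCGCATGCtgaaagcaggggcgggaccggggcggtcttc
MRPL52, chr14:22829821-22829878, plus strand: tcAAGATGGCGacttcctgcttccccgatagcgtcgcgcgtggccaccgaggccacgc
MRPL47, chr3:179604650-179604689, minus strand: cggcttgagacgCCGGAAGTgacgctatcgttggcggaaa
MRPL46, chr15:88467391-88467452, minus strand: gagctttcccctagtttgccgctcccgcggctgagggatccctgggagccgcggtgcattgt

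MRPL32 carries the core letters of the motif of NRF1, a factor known to act on nuclear genes for mitochondrial proteins, 39 to 32 bases before its start. MRPL52 carries the motif of YY1 (AAGATGGCG) 64 to 56 bases before its start. MRPL47 has the ETS motif (CCGGAAGT), which GABPA binds, 39 to 32 bases before its start, between it and NDUFB5. The stretch before MRPL46, which it shares with MRPS11, holds none of the motifs searched. Over the 67 members with a window, the NRF1 core (GCATGCGC or GCGCATGC) was found in 6, or 8.955%, against 2.813% of 27305 windows of the same length. The longer palindrome of NRF1, which is this core with GC added before its first letters, was in 1 member (1.493%, against 1.128%). The ETS motif was in 9 members (13.43%, against 3.644%), and the YY1 motif in 3 (4.478%, against 0.6409%). These were MRPL32, MRPL36 and MRPL52. After pre-treatment over 5 libraries all 3 were called higher, as were 46 of the 63 tested members without the YY1 motif. Over 6 libraries 0 of the 3 were called. The YY1 match of MRPL32 and the NRF1 core match of MRPL52 lie outside their printed stretches. The TATA box letters TATAAA were in 2 members (2.985%, against 11.13%), MRPL54 and MRPS15. Median log2FC after pre-treatment over 5 libraries was 0.86 for the 5 tested members with the NRF1 core and 0.66 for the 61 without it, and 0.66 for members with or without the ETS motif. A match gives letters only, not binding.

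Gene pairs that share a start region with another mitochondrial gene were described next. MRPL46, of the central protuberance where the large subunit faces the small one, and MRPS11, of the small subunit platform, start 63 bases apart on chromosome 15. MRPS11 was at 17.2 and 16.4 CPM in pre-treatment control replicates 1 and 2, 32.5 CPM in replicate 3 and 28.2, 29.2 and 26.1 CPM in treated libraries. MRPL46 was at 8.11 and 7.93 CPM, 12.04 CPM, and 12.1, 12.9 and 10.4 CPM in the same order. Both were called higher over 5 libraries, with log2FC of 0.80 (FDR = 0.0055) and 0.63 (FDR = 0.0306). MRPL36 and NDUFS6, a complex I subunit, had log2FC of 0.84 and 0.83 (FDR = 0.0112 and 0.0087), and MRPL47 and NDUFB5, another complex I subunit, 0.67 and 0.64 (FDR = 0.0125 and 0.0130). In the other pairs only the ribosomal gene was called. MRPL43 had a log2FC of 0.84 (FDR = 0.0050) beside 0.13 (FDR = 0.730) for C10orf2 (TWNK), the helicase of mitochondrial DNA, and MRPS12 had 0.62 (FDR = 0.0207) beside 0.15 (FDR = 0.769) for SARS2, the mitochondrial seryl-tRNA synthetase. SARS2 was low, at 1.69 ± 0.463 CPM (SD, n = 2) in the controls. Over 6 libraries none of the genes in these pairs was called (FDR of 0.604 to 0.960). The difference in response within a pair was not tested. Of the members with a head-to-head partner, 24 of 25 tested were called higher over 5 libraries, and of those without, 32 of 50. Over 6 libraries 0 of the 25 and 0 of the 50 were called. Some of these partners overlap the member, such as GGA3 and MRPS7. No share is given for all genes with such a partner, so the contrast is not read as particular to these members.

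**Figure D3:**
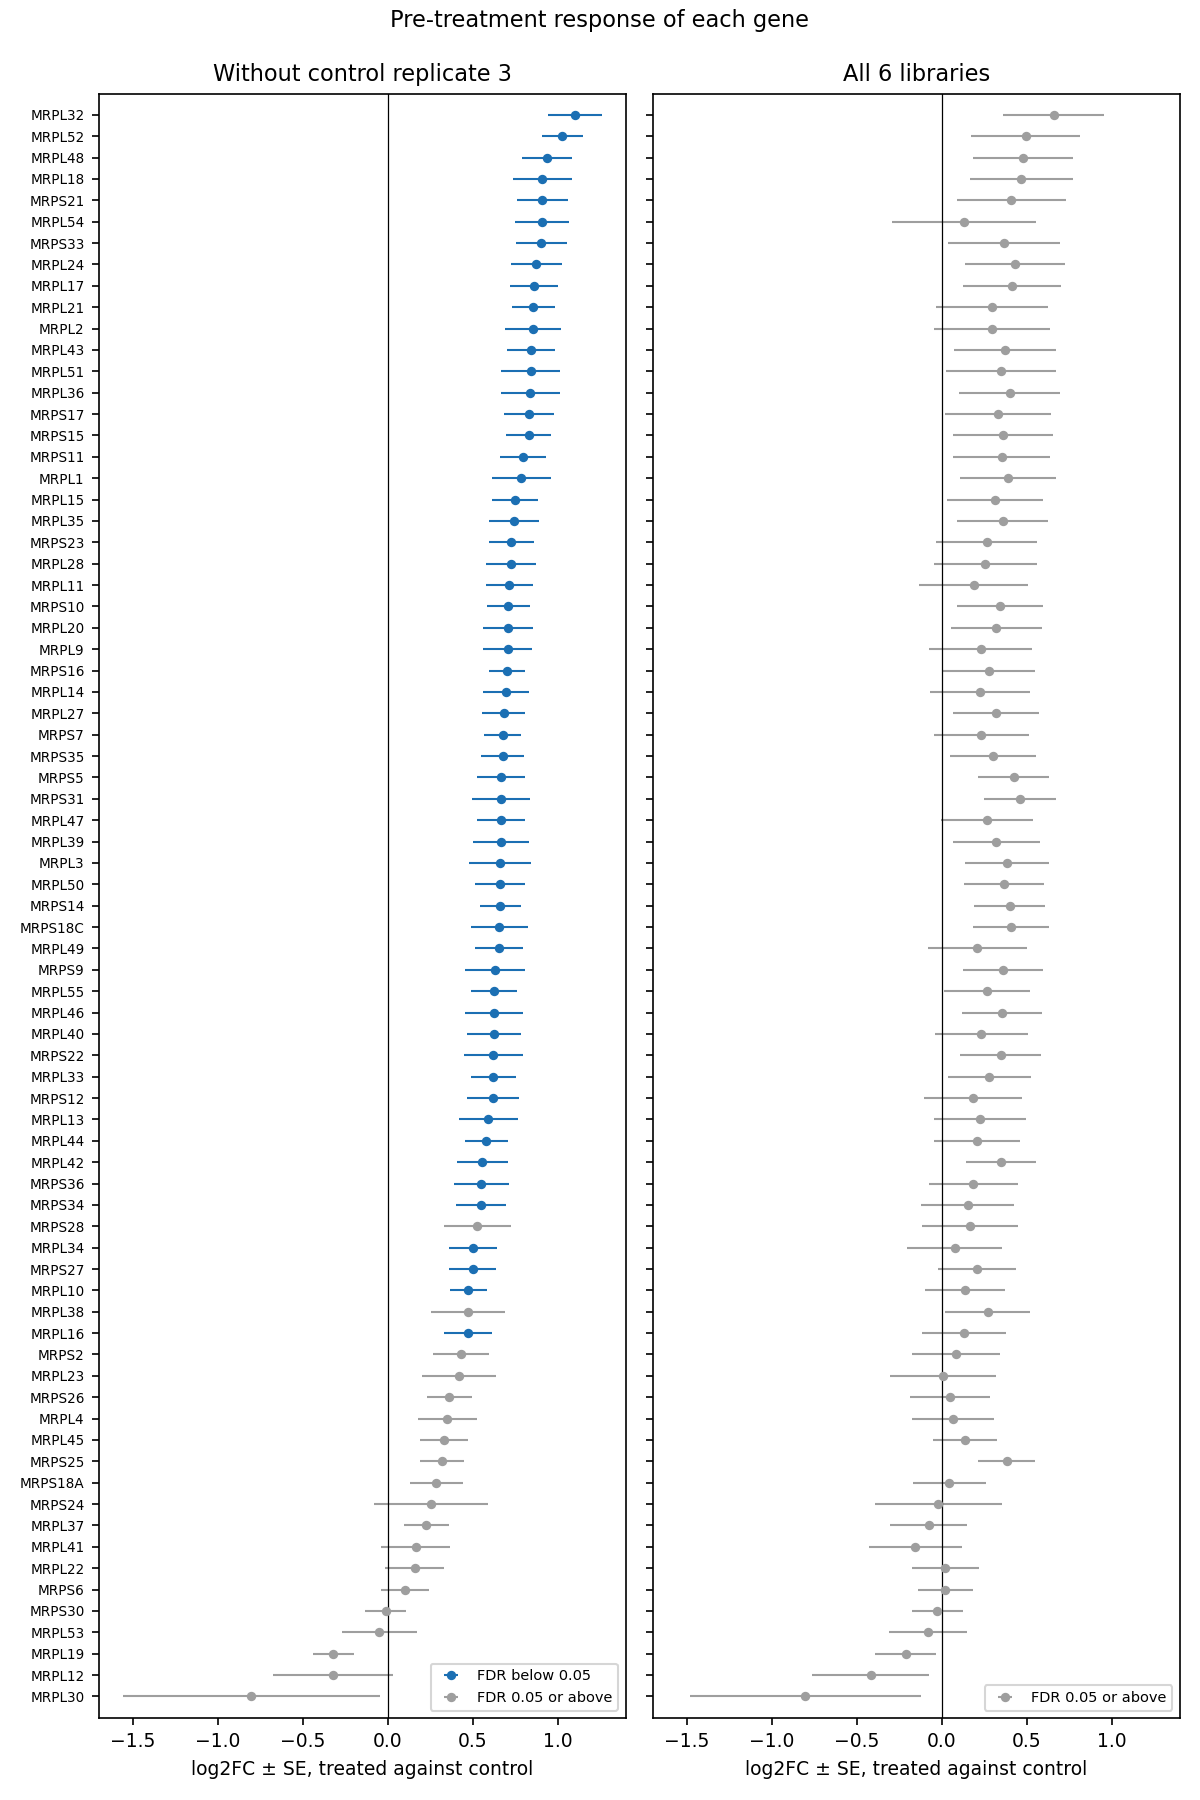
The log2FC (± SE) of each of the 75 tested genes after pre-treatment is plotted without control replicate 3 (left) and over all 6 libraries (right), in the order of the left panel. Blue marks FDR below 0.05. On the left 56 genes are blue and log2FC of called genes runs from 0.47 to 1.10, and on the right no gene is blue and the error bars are longer.

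Among large subunit proteins of the core with bacterial counterparts, 16 of 19 were called higher over 5 libraries, with a median log2FC of 0.71. MRPL21, the counterpart of bacterial L21, was at 22.0 and 20.3 CPM in control replicates 1 and 2, 47.7 CPM in replicate 3 and 35.8, 35.9 and 37.8 CPM in treated libraries (log2FC = 0.86 ± 0.13, FDR = 0.0035). The treated values lay close together and between the controls. MRPL3 (0.66), MRPL13 (0.59) and MRPL34 (0.50) were also called higher. Of the 3 members of this group not called, MRPL19 and MRPL30 had negative values.

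MRPL19, a counterpart of bacterial L19, showed an order of libraries unlike that of most members. It was at 48.4 and 49.5 CPM in control replicates 1 and 2, 34.8 CPM in control replicate 3, and 35.2, 36.1 and 40.7 CPM in treated libraries, so that treated cells lay below control replicates 1 and 2. Its log2FC was -0.32 ± 0.12 over 5 libraries (FDR = 0.0842) and -0.21 ± 0.18 over 6 (FDR = 0.678). In the co-treatment experiment it ranged from 31.8 to 39.9 CPM. MRPL30 was close to undetected, with 98 reads in all 12 libraries together, and its log2FC of -0.80 ± 0.75 over 5 libraries was not distinguishable from 0 (FDR = 0.458). Annotated genes on the same strand overlap MRPL19 over 19.5% of its exonic length, MRPL30 over 19.8%, MRPL12 over 69.5% and MRPL53 over 72.8%. Reads in such stretches may not be assigned to the member. Of the 18 members with such an overlap 9 were called higher, and of the 57 tested without, 47.

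At the stalk, which recruits translation factors to the large subunit, MRPL10 and MRPL11 were called higher over 5 libraries and MRPL12 was not. MRPL11 was at 19.6 and 23.1 CPM in control replicates 1 and 2, 46.2 CPM in replicate 3, and 31.8, 33.3 and 35.1 CPM in treated libraries (log2FC = 0.72 ± 0.14, FDR = 0.0084). MRPL10 stood at 58.6, 62.4 and 100.3 CPM in the controls and 83.4, 79.0 and 77.6 CPM after treatment (log2FC = 0.47 ± 0.11, FDR = 0.0157). Its call was lost without treated replicate 1 or treated replicate 2. The call also depended on the processing over all 5 libraries, with a highest FDR of 0.109 among the alternatives. With 1 library left out its log2FC was 0.44 to 0.52. MRPL12, the counterpart of the bacterial stalk protein L7/L12, stood at 4.46, 10.3 and 8.15 CPM in pre-treatment controls and at 4.10, 5.89 and 6.89 CPM in treated libraries (log2FC = -0.32 ± 0.35, FDR = 0.526). Its pre-treatment groups overlapped.

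Around the exit tunnel, through which the new chain leaves the large subunit, 5 of 8 members were called higher over 5 libraries (median 0.62). MRPL24 (0.87), MRPL17 (0.86), MRPL47 (0.67), MRPL39 (0.67) and MRPL44 (0.58) were called. MRPL45 had a log2FC of 0.33, MRPL23 of 0.42 and MRPL22 of 0.16. In the central protuberance 6 of 7 were called (median 0.63), led by MRPL48 (0.94) and MRPL18 (0.91) and including MRPL40 (0.62), with MRPL38 not called (0.47, FDR = 0.138). Of the other mitochondria-specific proteins of the large subunit, 7 of 11 were called (median 0.66). MRPL51 was at 58.7, 38.8 and 100.6 CPM in the controls and 84.4, 79.4 and 85.6 CPM in treated libraries (log2FC = 0.84 ± 0.17, FDR = 0.0109). MRPL37 (0.23), MRPL41 (0.16) and MRPL53 (-0.05) were not called, nor was MRPS30 (-0.01 ± 0.12, FDR = 0.954), a large subunit protein despite its name, which lay at 52.1 to 65.5 CPM in all 12 libraries.

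In the head of the small subunit 7 of 8 members were called higher over 5 libraries (median 0.67). MRPS33 (0.90), MRPS31 (0.67) and MRPS14 (0.66) were among them, and MRPS24 (0.26 ± 0.34, FDR = 0.601) was not. MRPS14 stood at 34.1, 30.8 and 48.0 CPM in the controls and 50.3, 48.9 and 47.4 CPM after treatment. In the body and platform, 7 of 10 proteins with bacterial counterparts were called (median 0.68). MRPS16, the counterpart of bacterial S16, was at 90.6 and 87.3 CPM in control replicates 1 and 2, 167 CPM in replicate 3, and 138, 144 and 131 CPM in treated libraries (log2FC = 0.70 ± 0.11, FDR = 0.0039). MRPS21 was at 115, 83.7 and 207 CPM in the controls and 183, 172 and 177 CPM after treatment (log2FC = 0.91 ± 0.15, FDR = 0.0049). For both genes the treated libraries lay above control replicates 1 and 2 and below control replicate 3. MRPS5 (0.67), MRPS15 (0.83) and MRPS17 (0.83) were called as well, and MRPS6 had a log2FC of 0.10.

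Among the small subunit proteins found only in mitochondria, 4 of 6 were called higher (median 0.52), MRPS34 (0.55) among them. MRPS25 was not called over 5 libraries (0.32 ± 0.13, FDR = 0.0960), and it was 1 of the 4 members with every treated library above every control: 75.6, 69.7 and 57.6 CPM in the controls against 80.7, 80.7 and 97.6 CPM. Its log2FC over 6 libraries was 0.38 ± 0.17, with the smallest FDR of any member in that fit (0.446). MRPS26 was at 44.1, 49.98 and 75.4 CPM in the controls and 51.8, 57.8 and 63.3 CPM after treatment, and was not called (0.36 ± 0.13, FDR = 0.0711).

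The paralogues of bacterial S18 were read separately. MRPS18C, which sits in the small subunit, was at 8.88, 7.47 and 11.9 CPM in the controls and 12.4, 12.6 and 11.9 CPM after pre-treatment (log2FC = 0.66 ± 0.17 over 5 libraries, FDR = 0.0227). Its call was lost without treated replicate 1 or treated replicate 2. The call also depended on the processing over all 5 libraries, with a highest FDR of 0.0918 among the alternatives. With 1 library left out its log2FC was 0.54 to 0.81. MRPS18A, a large subunit protein, was not called (0.29 ± 0.16, FDR = 0.203). MRPS18B, at 30585617 to 30594172 on chromosome 6, was listed at 0 in all 12 libraries, where 3 reads would have been 0.0305 to 0.109 CPM. Between 28085617 and 33094172 on that chromosome, 102 of 158 protein-coding genes (64.56%) were at 0 throughout, against 6.927% of the 17858 elsewhere, so a level of 0 there cannot be read as lack of expression. MRPS36, now known as a component of the 2-oxoglutarate dehydrogenase complex and not of the ribosome, had a log2FC of 0.55 ± 0.16 (FDR = 0.0378). This call was lost without treated replicate 1 or treated replicate 2. It also depended on the processing over all 5 libraries, with a highest FDR of 0.162 among the alternatives. With 1 library left out the log2FC of MRPS36 was 0.43 to 0.71.

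The 2 subunits and the 2 evolutionary classes gave similar counts. Over 5 libraries 36 of 47 MRPL and 20 of 28 MRPS genes tested were called higher, with medians of 0.66 and 0.64. Of members with a bacterial counterpart 36 of 47 were called (median 0.67), and of those without, 19 of 27 (median 0.62). Across the 10 fits that kept all 5 libraries, 32 members were called higher each time. The share of all genes called higher in every fit is not given here, so this count has no background beside it.

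The co-treatment comparison asked whether H2O2 during differentiation changed these genes. Of 74 members tested, 0 were called higher and 0 lower by edgeR's quasi-likelihood test, where 0.335% of all genes were higher and 0.263% lower. An unadjusted p below 0.05 was found for 3 members, against 8.15% of all genes. DESeq2, limma-voom and edgeR's exact test also called 0. The median log2FC was 0.07, against 0.00 for all genes, and 54 of 74 members were above 0, against 49.9% of all genes. Every treated library lay above every control for 2 members (MRPL3 and MRPL39), against 6.58% of genes, and below for 2 (MRPL12 and MRPL34), against 7.37%. Without control replicate 1 the median was -0.02. That library had the lowest level of the 6 for 52 of the 74 members, against 20.7% of all genes.

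The 4 members with the smallest p among those higher after co-treatment were MRPL3, MRPL13, MRPL39 and MRPL40. MRPL3, of the large subunit core, was at 53.0, 62.9 and 62.3 CPM in controls and 70.9, 82.5 and 65.3 CPM in treated libraries, with no overlap (log2FC = 0.30 ± 0.13, FDR = 0.587). MRPL13 had 17.4, 20.8 and 21.9 CPM against 25.2, 33.3 and 20.5 CPM (0.40 ± 0.18, FDR = 0.597), and the groups overlapped. MRPL39 had a log2FC of 0.32 (FDR = 0.617) and MRPL40 of 0.22 (FDR = 0.786). MRPL12 had the smallest FDR of all members, at 16.1, 8.21 and 9.71 CPM in controls and 8.21, 6.41 and 6.44 CPM in treated libraries (log2FC = -0.70 ± 0.24, FDR = 0.387). Control replicate 1 lay far above the other 5 libraries for this gene, and without it the log2FC was -0.35. Without a filter on low counts MRPL12 was called lower (FDR = 0.0266). MRPL34 (-0.17), MRPS34 (-0.17) and MRPL53 (-0.19) had small negative values.

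**Figure D4:**
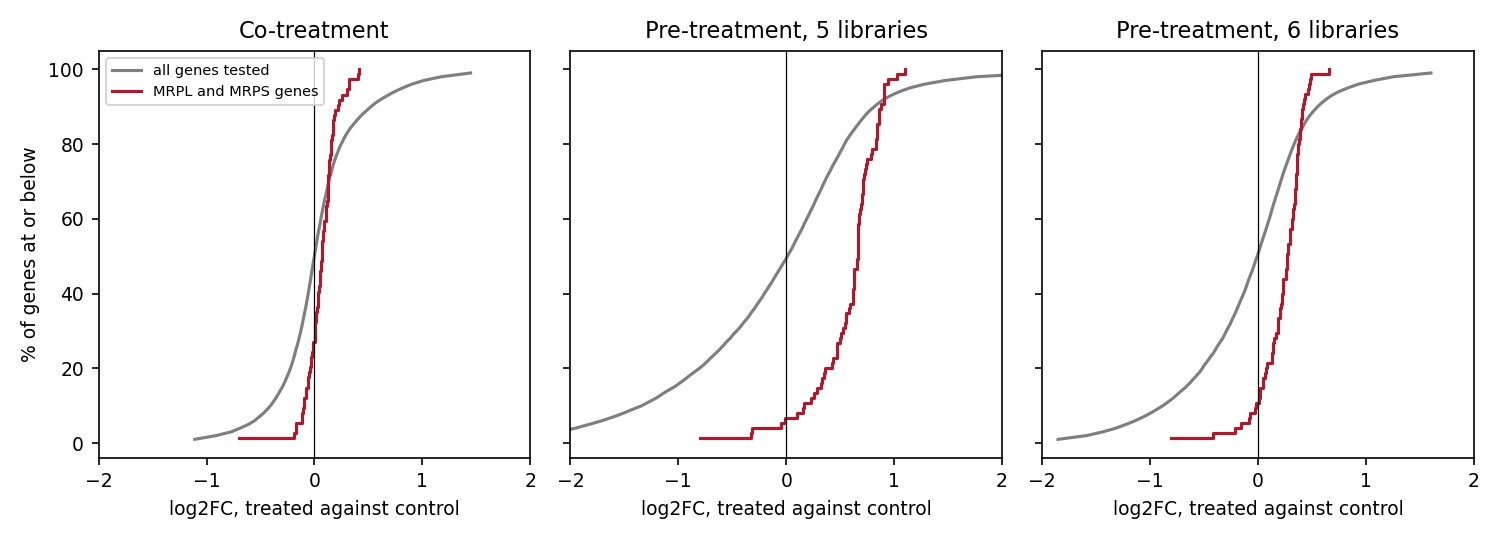
The share of genes (%) at or below each log2FC is drawn for the MRPL and MRPS genes (red) and for all genes tested (grey), in the co-treatment comparison and in the pre-treatment comparison over 5 and 6 libraries. The red curve is shifted to the right of the grey over 5 libraries (medians 0.66 and 0.01), less over 6 (0.27 and -0.01), and little in co-treatment (0.07 and 0.00).

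The difference between the responses of both experiments was tested as an interaction. Over all 12 libraries, 0 of 75 members differed, at a background of 0.0246% of genes higher after pre-treatment and 0.0041% lower, and none had an unadjusted p below 0.05, against 8.94% of genes. DESeq2 and limma-voom also called 0. In simulated data of the same kind this fit recovered 0.5% of differences of 1 in size. The lack of calls is not read as equal responses. The median difference was 0.19. MRPS5 had the smallest FDR (difference 0.51, FDR = 0.568). MRPL32 had the largest positive difference (0.62, FDR = 0.6004), and MRPL19 had -0.32 (FDR = 0.659). Over the 11 libraries without pre-treatment control replicate 3, 11 members had a higher response after pre-treatment, where 3.32% of all genes did, and 0 a lower one, against 4.7% of genes, with a median difference of 0.50. Of the 75 members, 72 had a difference above 0, against 49% of genes, and 44 an unadjusted p below 0.05, against 28.1%. The count was 38 without co-treatment control replicate 1 and 0 without pre-treatment control replicate 2.

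Other parts of the mitochondrial translation system were compared by fixed lists, without set tests. The 6 ribosomal proteins that carry other symbols (DAP3, PTCD3, ICT1, GADD45GIP1, AURKAIP1 and CHCHD1) were all called higher after pre-treatment over 5 libraries, with a median log2FC of 0.70. GADD45GIP1 stood at 17.7 and 18.1 CPM in control replicates 1 and 2, 41.6 CPM in replicate 3 and 31.1, 30.1 and 34.1 CPM in treated libraries (0.90, FDR = 0.0036). Of 23 genes for ribosome assembly and rRNA modification, 10 were called higher and 1 lower (median 0.39). MTERFD2 (MTERF4), which binds the rRNA methyltransferase NSUN4, had a log2FC of 0.87 (FDR = 0.0033), and TFB1M, which methylates the small rRNA, was called lower (-0.40, FDR = 0.0431). Of 15 translation factors and mRNA-handling genes 8 were higher (median 0.50), with the smallest FDR for GFM2, which acts in ribosome recycling (0.73, FDR = 0.0073). Of 19 mitochondrial aminoacyl-tRNA synthetases 8 were higher (median 0.35), with the smallest FDR for HARS2 (0.74, FDR = 0.0067). Of 9 genes for transcription and replication of mitochondrial DNA 5 were higher (median 0.50), with SSBP1, the single-strand binding protein, at 0.71 (FDR = 0.0099). Over 6 libraries and after co-treatment 0 genes of these 5 lists were called by edgeR's quasi-likelihood test, DESeq2, limma-voom or edgeR's exact test, and 0 to 4 genes of a list had an unadjusted p below 0.05.

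The RNAs of the mitochondrial ribosome moved the other way. MT-RNR1, the small subunit rRNA, was at 155 and 196 CPM in pre-treatment control replicates 1 and 2, 40.0 CPM in control replicate 3 and 67.1, 49.2 and 59.4 CPM in treated libraries (log2FC = -1.51, FDR = 0.0011). MT-RNR2, the large subunit rRNA, had a log2FC of -1.42 (FDR = 0.0010). Over 6 libraries neither was called (FDR = 0.438 and 0.368). Co-treatment control replicate 1 held 1213 CPM of MT-RNR1, against 35.5 to 76.7 CPM in the other 5 libraries of that experiment. The libraries were made after rRNA depletion with a commercial kit, and the part of depletion in these levels was not tested. Of the 13 protein-coding genes of mitochondrial DNA, 7 were called lower and 1 higher over 5 libraries (median -0.76). MT-CYB had a log2FC of -1.89 (FDR = 0.0020), and MT-ND6, which lies on the other strand from the rest, 1.09 (FDR = 0.0040). Over 6 libraries 0 of the 13 were called by the quasi-likelihood test (median -0.42, with FDR of 0.409 for MT-CYB and 0.192 for MT-ND6), 3 had an unadjusted p below 0.05, and DESeq2 and edgeR's exact test each called 1 higher.

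Nuclear genes for the respiratory chain and for the cytosolic ribosome were counted in the same comparison over 5 libraries. Of 77 nuclear respiratory chain genes 61 were called higher (median 0.61), and of 85 cytosolic ribosomal protein genes 80 (median 0.92), with 0 lower in either list. Over 6 libraries and after co-treatment the quasi-likelihood test called 0 genes of either list. Beside it, 1 cytosolic gene was called higher over 6 libraries by DESeq2 and 1 lower after co-treatment by edgeR's exact test. The difference between these lists and the mitochondrial ribosomal genes was not tested. Of 9 regulators of nuclear mitochondrial genes 1 was called higher over 5 libraries, a share of 11.1% beside 13.2% of all genes. This was GABPB1, the partner of GABPA (0.49, FDR = 0.0284), and over 6 libraries it was not called (0.19, FDR = 0.774). MYC had the largest value of the list (2.56, FDR = 0.0538) and PPRC1 the lowest (-0.75, FDR = 0.0577), and neither was called by the quasi-likelihood test. Over 5 libraries DESeq2 and limma-voom each called 1 regulator higher and 1 lower, and edgeR's exact test 2 higher and 1 lower. NRF1 itself lay at 28.7, 28.2 and 35.8 CPM in pre-treatment controls and 28.8, 23.6 and 28.8 CPM in treated libraries, and YY1 had a log2FC of -0.33 (FDR = 0.0630).

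Markers of cell state were read beside these results. VIM, a filament protein of substrate-adherent (mesenchymal) neuroblastoma cells, was at 4.04 ± 0.966 CPM (SD, n = 3) in pre-treatment controls, and at 22.8, 19.4 and 21.7 CPM in treated libraries. It was called higher over 5 libraries (2.66), over 6 (2.42, FDR = 0.0442) and after co-treatment (1.16, FDR = 0.0272). Of the 7 mesenchymal markers tested, 4, 1 and 1 were called higher in these comparisons and 0 lower. Of all genes, 13.2%, 0.0242% and 0.335% were called higher. Over 5 libraries DESeq2, edgeR's exact test and limma-voom each called 1 marker lower. Over 6 libraries DESeq2 called 4 higher, edgeR's exact test 3 and limma-voom 0. COL1A1 had a log2FC of -1.05 (FDR = 0.0567) and FN1 of -0.53 (FDR = 0.171) over 5 libraries, and after co-treatment they had -1.65 (FDR = 0.524) and 0.51 (FDR = 0.655). The summed level of the list was 265, 146 and 134 CPM in the pre-treatment controls and 194, 175 and 136 CPM in the treated libraries. Of 6 noradrenergic neuroblast markers, 1 was called higher and 3 lower over 5 libraries. DESeq2 called 0 higher and 2 lower, edgeR's exact test 0 and 3, and limma-voom 1 and 3. After co-treatment 0 of the 6 had a log2FC above 0, and the quasi-likelihood test and limma-voom called 0. DESeq2 and edgeR's exact test each called 1 lower there. The proliferation marker MKI67 had a log2FC of -2.10 over 5 libraries (FDR = 0.0108), with the other 5 of its list not called, and of the 5 neuronal markers MAPT was called lower (-0.94, FDR = 0.0142). Over 6 libraries 0 noradrenergic, proliferation or neuronal markers were called by the quasi-likelihood test (FDR of 0.366 for MKI67 and 0.377 for MAPT), with an unadjusted p below 0.05 for 2, 1 and 1 of them, and DESeq2 called 2 noradrenergic markers lower. The part of cell state in the result was not tested.

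Levels of different members were compared per kilobase of merged exons, as CPM per kb over the 12 libraries, since longer transcripts gather more reads. MRPS21 was highest at 107.6 ± 23.2 (SD, n = 12), followed by MRPS26 at 61.3 ± 9.94 and MRPL51 at 57.1 CPM per kb. The lowest after MRPS18B were MRPL30 at 0.0315 and MRPS24 at 0.346 CPM per kb. URGCP-MRPS24, on the same strand, overlaps MRPS24 over 23.2% of its 2607 merged exon bases, and the canonical transcript of MRPS24 is 667 bases long. Same-strand genes overlap MRPL30 over 19.8%. Reads in such stretches may not be assigned to the member. MRPL53 and MRPL12 had the largest overlaps (72.8% and 69.5%) and stood at 6.33 and 7.84 CPM per kb. The part of overlap in the low values was not tested, and they are not read as low expression here. MRPS26 and MRPL51 did not differ beyond their spread. With the length of the canonical transcript in place of merged exons, chosen after the data were seen, MRPS21 stood at 148.7, MRPL51 at 88.3 and MRPS24 at 1.35 CPM per kb, and MRPS26 fell from rank 2 to rank 8.

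**Figure D5:**
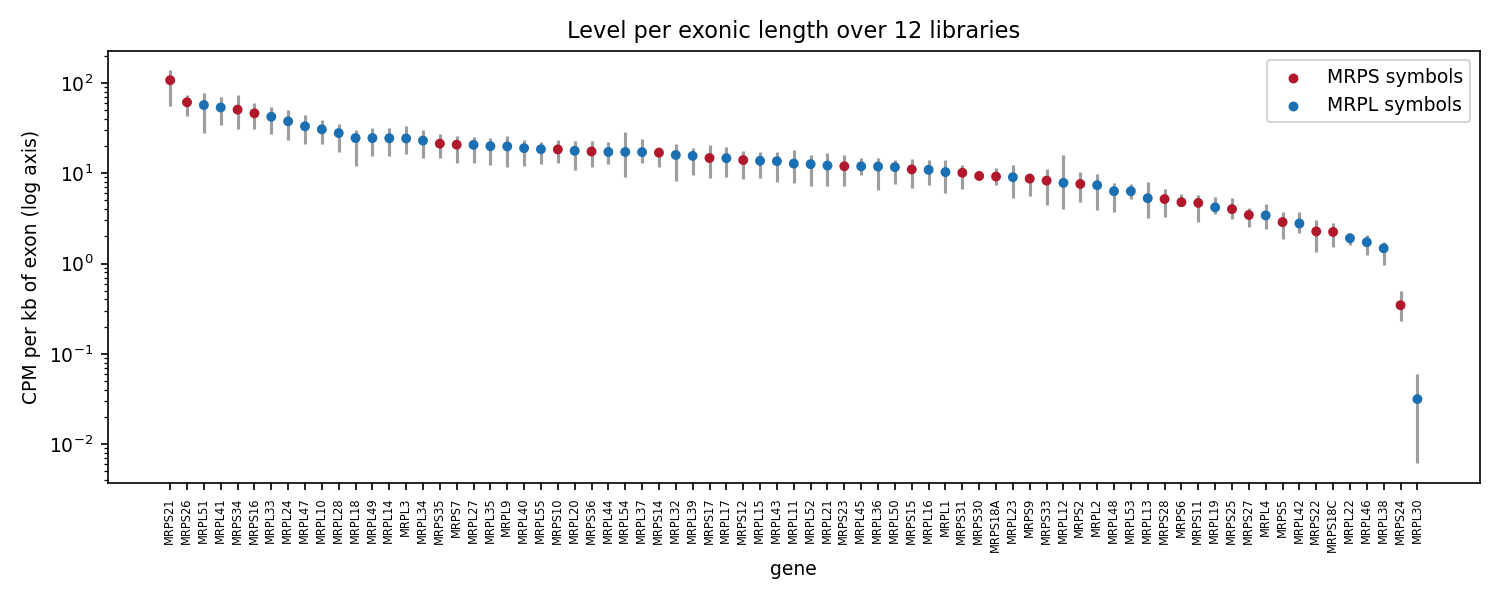
Mean level of each detected gene over the 12 libraries, as CPM per kb of merged exons on a log axis, in falling order. Grey lines run from the lowest to the highest library, and colour separates MRPS (red) from MRPL (blue) symbols. MRPS21 is highest at 107.6, and MRPS24 and MRPL30 stand apart at 0.346 and 0.0315. Other genes overlap MRPS24 and MRPL30 on the same strand, and the part of this in their counts was not tested.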

How the data were processed

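Total RNA depleted of rRNA was sequenced in 12 libraries, 3 for each of 4 groups given by the labels. According to the authors, read quality was inspected in FastQC 0.11.8. Low-quality bases were trimmed off in Cutadapt 2.10, and HISAT2 2.1.0 aligned the reads to hg19. The htseq-count program of HTSeq 0.7.2 then assigned them to gene symbols. The deposited values are whole-number counts per symbol and library, not normalized. The annotation version and strand setting are not given in the sources used here. The closing entries for uncounted reads were left out of library sizes: no-feature reads numbered 0.200 to 0.830 per read on a gene. The deposited tables of fold changes, average levels and p-values by the authors were not used.

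Tests were run under R 4.3.3, using edgeR 4.0.16 for main values, with DESeq2 1.42.0 and limma 3.58.1 as alternatives. A gene was tested if enough libraries (the size of the smaller group) had a CPM worth 5 counts or more in the shallowest library. TMM scaling and edgeR's quasi-likelihood test were used, p-values were adjusted over all genes tested by the Benjamini-Hochberg method (FDR), and an FDR below 0.05 was a call. CPM in the text are TMM-scaled over all 12 libraries. The interaction of treatment and experiment tested the difference between responses. Steps were tested on simulated data in which 200 genes were changed by a log2FC of 1 in size. Each gene had the same simulated spread in all libraries, so a single shifted library was not simulated. Of the changed genes, 91% were recovered in co-treatment, 53.5% in pre-treatment over 5 libraries and 0.5% over 6. The difference between experiments recovered 0.5% over 12 libraries and 21.5% over 11.

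Members and lists were chosen with earlier results of these data known. Named members were the 4 with the smallest p in each direction and comparison, those with roles of interest, the 3 highest and 3 lowest levels and those failing the filter; other names, the start regions, the gene pairs and the chromosome 6 interval were chosen after values were seen. Genes were placed on hg19 through GENCODE coordinates lifted to it, and all 76 members matched. Start windows are from RefSeq (GRCh38.p14), placed on the hg19 annotation by exact match to leave out exons. Alternatives were other tests, scalings, filters, a length offset, a replicate block, a fold threshold and leaving out each library.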

Additional observations from a re-analysis of the deposited data

Results flagged for a closer look

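The response after pre-treatment differed from that after co-treatment for 11 members when pre-treatment control replicate 3 was left out (interaction test of edgeR over 11 libraries, FDR below 0.05). The difference in log2FC was 1.02 for MRPL32, 0.92 for MRPL52, 0.88 for MRPL43, 0.80 for MRPL21, 0.75 for MRPS21, 0.74 for MRPL11, 0.74 for MRPS17, 0.73 for MRPL28, 0.71 for MRPS15, 0.67 for MRPS11 and 0.62 for MRPL34, with FDR from 0.0150 to 0.0471. Over all 12 libraries 0 members differed. The count of 11 moved to 38 without co-treatment control replicate 1, to 2 and 3 without co-treatment control replicates 2 and 3, to 3 and 1 without co-treated replicates 2 and 3, to 6 and 0 without pre-treatment control replicates 1 and 2, and to 1 and 4 without pre-treated replicates 1 and 2.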

How the results depend on the processing

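After pre-treatment over 5 libraries, 56 members were called higher with DESeq2, limma-voom, edgeR's exact test, RLE scaling and filterByExpr, 55 without a filter and 46 with an offset for exonic length. With library size only, which moved the median of all genes to -0.21, 33 were higher and 1 lower (MRPL19), and with a fold threshold of log2FC above 1, 2 were higher. Leaving out 1 library gave 12 to 56 higher and 0 to 1 lower. Over 6 libraries the count was 0 to 56, with 56 only without control replicate 3. The difference between experiments over 12 libraries gave 0 to 11 (11 without pre-treatment control replicate 3). Over 11 libraries the 11 became 19 with DESeq2, 24 without a filter, 3 higher and 1 lower with library size only, and 0 to 38 with 1 library left out. After co-treatment 1 member was called lower without a filter. Replicate numbers did not pair the samples (correlations of same-numbered residuals from -0.279 to 0.0695). With the replicate block over 5 libraries 58 members were higher and 1 lower (MRPL19). Of the 26350 genes tested, this setting called 5876 higher and 4879 lower, against 3489 and 3382 in the main fit. No named member that was called reversed under the alternatives run. Among values not called, over 5 libraries MRPL12 was 0.41 without control replicate 2 (-0.79 to 0.41 with 1 library left out). MRPL53 was 0.059 with the replicate block, 0.093 with the length offset and -0.16 to 0.10 with 1 library left out, and MRPS30 was -0.13 to 0.045. Over 6 libraries MRPL41 was -0.39 to 0.16 (0.16 without control replicate 3) and MRPL53 -0.16 to 0.014 (0.014 without treated replicate 3). The 12-library difference of MRPL37 was -0.27 to 0.11 (0.060 without co-treated replicate 1, 0.11 without pre-treatment control replicate 3). The spread of pre-treatment controls limits what the 6-library fit can call. The cause of these changes was not tested.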

Other observations

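The gene for MRPL57 is listed under its older symbol MRP63, outside the rule, and was looked up after other values were seen. It stood at 28.9, 31.5 and 42.3 CPM in pre-treatment controls and 35.5, 37.5 and 36.4 CPM in treated libraries (log2FC = 0.34 over 5 libraries, FDR = 0.0680, edgeR quasi-likelihood test). Pseudogene symbols exist for 32 of the 76 members, 66 symbols in all, and their summed counts were 233 to 895 reads per library, against 87488 to 300501 for the members. Among members with a pseudogene symbol 25 of 31 tested were called higher after pre-treatment over 5 libraries, and among those without, 31 of 44.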
